A study of Mus musculus with 32 samples.

Results

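The organic anion transporter genes Slco1a1, Slco1a4, Slco1b2, Slco2a1 and Slco2b1 were followed in mouse liver. Probes were taken by gene symbol, which gave 7 of the 25697 probes on the array, and 4 of the 5 genes were among the 9972 genes that could be tested. The set was selected on earlier differences of these same livers, in which Slco2a1 rose with disulfiram. The livers were those of 30 C57BL/6J males in 6 groups of 5, on a standard diet (SD, 17% of energy as fat) or a high-fat diet (HFD, 61%). The mice were 56 weeks old by the labels and had spent 40 weeks on the diet, from 16 weeks of age. Disulfiram (DSF), a drug that inhibits aldehyde dehydrogenase, was mixed into the food. SD and HFD mice received none. SDL and HFDL mice received the low dose of 100 mg/kg/day and SDH and HFDH mice the high dose of 200 mg/kg/day. By the labels, the food of SDL mice held 1 g/kg of DSF and that of SDH mice 2 g/kg, while HFDL food held 2.33 g/kg and HFDH food 2.67 g/kg. The step between the doses in food was thus smaller on HFD. The comparisons ask which genes change with HFD and with each dose of DSF on either diet.

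Slco genes encode organic anion transporting polypeptides, membrane carriers that bring amphipathic anions into cells without direct use of ATP. In mouse liver, the products of Slco1b2, Slco1a1 and Slco1a4 sit on the blood side of hepatocytes and take up bile acids, steroid conjugates, thyroid hormones and many drugs. Slco2b1 encodes a carrier of steroid sulfates and drugs that is found in many tissues. Slco2a1 encodes the prostaglandin transporter, which brings prostaglandins into cells, where 15-hydroxyprostaglandin dehydrogenase, the product of Hpgd, oxidizes them. It is known from endothelium, lung and other tissues, and is less studied in hepatocytes.

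In the RefSeq annotation of GRCm38.p6, Slco1b2 (chr6:141629452-141686646), Slco1a4 (chr6:141805438-141856284) and Slco1a1 (chr6:141907281-141946962) lie side by side on chromosome 6. This cluster of 6 Slco genes also holds Slco1c1, Slco1a6 and Slco1a5. Slco2b1 lies on chromosome 7 (chr7:99657804-99711340) and Slco2a1 on chromosome 9 (chr9:103007061-103096002). The 2 windows around a transcription start that follow, from 250 bases before it to 50 after, are those of Slco2a1 (chr9:103008237-103008536, plus strand) and Slco1b2 (chr6:141629268-141629567, plus strand). They are shown because Slco2a1, which was given no test, had the largest differences of the 4 detected members and Slco1b2 had the single call. Capitals mark matches to 3 motifs searched on both strands.
Slco2a1: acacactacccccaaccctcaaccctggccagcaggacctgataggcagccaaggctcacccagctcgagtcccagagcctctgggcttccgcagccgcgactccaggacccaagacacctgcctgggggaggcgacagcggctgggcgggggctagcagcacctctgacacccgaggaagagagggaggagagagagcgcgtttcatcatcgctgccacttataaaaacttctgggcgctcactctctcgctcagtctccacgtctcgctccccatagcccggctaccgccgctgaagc
Slco1b2: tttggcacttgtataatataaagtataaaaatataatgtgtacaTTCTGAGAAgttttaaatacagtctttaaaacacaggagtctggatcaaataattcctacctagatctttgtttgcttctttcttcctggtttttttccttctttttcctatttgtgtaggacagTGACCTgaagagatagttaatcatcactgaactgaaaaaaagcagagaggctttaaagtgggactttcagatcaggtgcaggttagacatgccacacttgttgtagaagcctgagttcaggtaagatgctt
The Slco2a1 window is rich in G and C (64%), the Slco1b2 window poor (35.3%). The motifs were AGGTCA, the half-site of many nuclear receptors, TGACNNNGC, the core of the antioxidant response element, and TTCNNNGAA, the element of STAT5. The Slco1b2 window held 1 AGGTCA on the minus strand, 81 bases before the start, and 1 TTCNNNGAA beginning 206 bases before it. The Slco2a1 window held none of the 3, and neither did that of Slco1a4. The Slco1a1 window held AGGTCA at 2 places, and 2 of the 3 Slco2b1 windows held 1 TTCNNNGAA each. Over all 32851 such windows, 16.3% held AGGTCA, 12.4% TGACNNNGC and 8.3% TTCNNNGAA. A match is a description of the letters only, and its absence says nothing of the factor.

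The samples were measured on 32 arrays, since SD replicate 1 and HFD replicate 2 had 2 arrays each (Pearson's r 0.997 and 0.996), which were averaged. The arrays of 3 mice, SDH replicate 16, HFDL replicate 10 and HFDH replicate 16, detected 6.56%, 23.7% and 27.2% of the probes and fell under the limit of 35%. The other 29 arrays detected 43.8% to 52.7% and gave 27 mice, 5 in SD, SDL and HFD and 4 in SDH, HFDL and HFDH. Values are normalized signals on the log2 scale, so that 1 unit is a doubling, and a fold change is a difference of group means with its standard error (SE). Levels of different probes are not compared. Of 15 hepatocyte markers, 11 could be tested and Ttr, Apoa1 and Cyp2e1 were detected in all 27 mice. The probe of Alb, the gene of albumin and a defining marker of hepatocytes, was detected in only 13 mice and its highest signal was 6.73. Markers of pancreatic acinar cells averaged 12.6 in SDH replicate 17, 9.81 in SD replicate 2 and 7.54 in SD replicate 4, and 6.13 to 7.20 in the other 24 mice. Where a called gene named in a comparison with SD mice was no longer called without SDH replicate 17 and SD replicate 2, this is said beside it.

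Among the 27 mice kept, Slco2a1 was higher in every mouse given DSF than in every mouse on the same diet without it. This held at both doses and on both diets, and the group means of Slco2a1 differed by 1.97 to 2.84 times. Its probe (ILMN_2961216) was detected in 27 of 27 mice. Because the gene was put first in the set for this pattern, its values are given as a description with no test. In SD mice its signal was 9.76, 8.88, 9.54, 8.79 and 8.77 in replicates 1 to 5 (mean 9.15 ± 0.47, SD of the mice, n = 5). In SDL mice it was 10.55, 10.65, 10.94, 10.49 and 10.40 in replicates 7 to 11 (10.61 ± 0.21, n = 5), and in SDH mice 10.73, 11.29, 10.52 and 10.06 in replicates 13, 14, 15 and 17 (10.65 ± 0.51, n = 4). The lowest SDH mouse, replicate 17, is the one with the acinar transcripts, and it still lay above the highest SD mouse.

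On HFD the pattern returned at a lower level. HFD mice had 8.86, 9.28, 9.03, 8.67 and 9.001 in replicates 1 to 5 (8.97 ± 0.22, n = 5). HFDL mice had 9.92, 9.95, 9.99 and 9.94 in replicates 7, 8, 9 and 11 (9.95 ± 0.03, n = 4), and HFDH mice 10.53, 10.31, 10.23 and 10.02 in replicates 13, 14, 15 and 17 (10.27 ± 0.21, n = 4). The 4 HFDL mice were nearly equal, and neither group overlapped HFD.

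**Figure D1:**
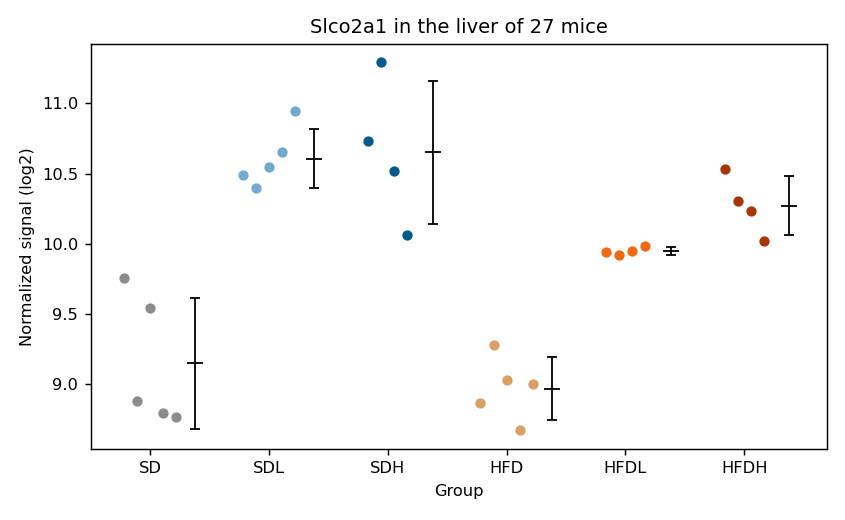
Normalized signal of Slco2a1 (log2, vertical axis) in each of 27 mice by group, with the group mean and the SD of the mice as the bar beside the points. Mice with DSF lie between 9.92 and 11.29 and mice without it between 8.67 and 9.76.

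The log2 fold change of Slco2a1 was 1.46 in SDL-SD (SE 0.19, 2.75-fold), 1.50 in SDH-SD (SE 0.20, 2.84-fold), 0.98 in HFDL-HFD (SE 0.20, 1.97-fold) and, at the high dose, 1.30 in HFDH-HFD (SE 0.20, 2.47-fold). These pairs of comparisons share their SD or HFD mice. Of 9972 genes, 1.34% lay wholly above the control in SDL-SD, 2.94% in SDH-SD, 1.7% in HFDL-HFD and, at the high dose, 3.81% in HFDH-HFD. Larger rises were seen for 7 genes in SDL-SD, 26 in SDH-SD and 10 in each of HFDL-HFD and HFDH-HFD. Since Slco2a1 was put first in the set for its rise, its rank and separation are no support for that rise. Without SD replicate 2 and SDH replicate 17, the SDH-SD value was 1.63 (SE 0.21). With the 3 low-signal mice included, the SDH-SD value was 0.95, the HFDH-HFD value 0.57 and the HFDL-HFD value 0.30, each with an SE of 0.60. In those 3 mice the raw intensity of the probe was 38, 49 and 60, and it was detected only in HFDH replicate 16.

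Between doses and diets the differences of Slco2a1 were smaller. SDH lay 0.05 above SDL (SE 0.20), with overlapping groups, and HFDH lay 0.32 above HFDL (SE 0.21), with every HFDH mouse above every HFDL mouse, as for 1.69% of all genes. HFDL lay 0.66 below SDL (log2 fold change -0.66, SE 0.20), again without overlap, as for 5.81% of all genes. HFDH against SDH gave -0.38 (SE 0.21) and HFD against SD -0.18 (SE 0.19), and in both the groups overlapped. The effect of the low dose on HFD minus that on SD was -0.48 (95% interval -1.05 to 0.10), and that of the high dose was -0.20 (-0.79 to 0.39). These intervals are a description, and whether the effect on Slco2a1 differs between diets was not tested.

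Slco1b2, the liver's uptake carrier for bile acids and bilirubin conjugates, went the other way on SD. In SD mice the signal of its probe ILMN_1251837 was 11.48, 11.85, 12.26, 12.10 and 11.001 in replicates 1 to 5 (11.74 ± 0.51, n = 5). In SDL mice it was 11.16, 10.98, 11.19, 11.68 and 11.16 in replicates 7 to 11 (11.23 ± 0.26, n = 5). In SDH mice it was 11.25, 10.93, 11.30 and 10.80 (11.07 ± 0.24, n = 4). All SDH mice lay below 4 of the 5 SD mice, and SD replicate 5 lay among them, so the groups overlapped.

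The log2 fold change of Slco1b2 in SDH-SD was -0.67 (SE 0.20, 1.59-fold lower, limma adjusted p = 0.043), and this was the single call among 15 tests of Slco1a4, Slco1b2 and Slco2b1 in the 5 comparisons. In that comparison 7.07% of all genes were called, and 4.26% were lower. The median of 11 hepatocyte markers was 0.32 there, beside -0.04 over all genes. At an unadjusted p under 0.05, 2 of the 15 tests passed. The call held under 5 of 10 other settings (adjusted p 0.01 to 0.49) and was lost on leaving out any of 8 of the 27 mice, namely each of the 4 SDH mice, SD replicates 2, 3 and 4, and HFD replicate 2 (limma adjusted p 0.051 to 0.1). Without SD replicate 2 and SDH replicate 17 the value was -0.55 (SE 0.23, limma adjusted p = 0.18). In SDL-SD the value was -0.51 (SE 0.19, limma adjusted p = 0.26), and without SD replicate 5 it was -0.69 and passed (limma adjusted p = 0.045).

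On HFD, Slco1b2 passed in no comparison. HFD mice had 11.62, 11.53, 11.46, 11.23 and 11.76 (11.52 ± 0.20, n = 5), HFDL mice 11.65, 11.30, 11.74 and 11.18 (11.47 ± 0.27, n = 4) and HFDH mice 10.94, 10.89, 11.27 and 11.49 (11.15 ± 0.28, n = 4). HFDH-HFD was -0.37 (95% interval -0.78 to 0.04, limma adjusted p = 0.3), HFDL-HFD -0.05 (-0.46 to 0.36) and HFD-SD -0.22 (-0.61 to 0.17). In these comparisons 4.38%, 0.461% and 0.933% of all genes were called. The second probe of Slco1b2, ILMN_2730145, was detected in 0 of 27 mice and stayed between 5.27 and 5.80, so the 2 probes of the gene disagree on whether it is expressed.

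Slco1a4, an uptake carrier whose gene is known as a target of the nuclear receptors PXR and CAR in mouse liver, varied more between mice of 1 group than between groups. The signal of its probe ILMN_1258323 was 8.10 ± 0.46 in SD (n = 5), 8.19 ± 0.52 in SDL (n = 5), 8.38 ± 0.26 in SDH (n = 4), 8.56 ± 0.56 in HFD (n = 5), 8.75 ± 0.39 in HFDL (n = 4) and 8.44 ± 0.58 in HFDH (n = 4). The HFD mice alone ranged from 7.95 to 9.19 and the SD mice from 7.58 to 8.81. The largest of the 5 differences was HFD-SD at 0.46 (95% interval -0.12 to 1.04, limma adjusted p = 0.48). The differences with DSF ran from -0.11 in HFDH-HFD to 0.28 in SDH-SD, with adjusted p of 0.62 to 0.96, and the SDL-SD interval was -0.49 to 0.67. A second probe, ILMN_2648990, was detected in 0 of 27 mice, between 5.10 and 5.65, so the 2 probes disagree here too.

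Slco2b1 (ILMN_2619707) was the steadiest of the detected members, with a range of 1.12 over the 27 mice against 2.62 for Slco2a1. Its signal was 12.15 ± 0.21 in SD (n = 5), 12.17 ± 0.17 in SDL (n = 5), 12.05 ± 0.29 in SDH (n = 4), 12.45 ± 0.19 in HFD (n = 5), 12.49 ± 0.31 in HFDL (n = 4) and 12.18 ± 0.25 in HFDH (n = 4). All groups overlapped those they were compared with. HFD-SD was 0.30 (95% interval -0.0014 to 0.60, limma adjusted p = 0.36) and HFDH-HFD -0.27 (-0.58 to 0.05, adjusted p = 0.34). SDL-SD, SDH-SD and HFDL-HFD lay between -0.10 and 0.04, and with only centring of each array on its median HFDH-HFD was -0.56 and passed (limma adjusted p = 0.0055).

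Slco1a1, a carrier of steroid conjugates known for its male-biased level in mouse liver, has 1 probe (ILMN_1224385), and it was detected in 0 of 27 mice. Its signal lay between 5.47 and 5.93, at or under the lowest signals of detected probes (5.89 to 6.22 by mouse), with group means of 5.65 to 5.81. A signal not above the negative controls gives no fold, and the gene was not tested.

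**Figure D2:**
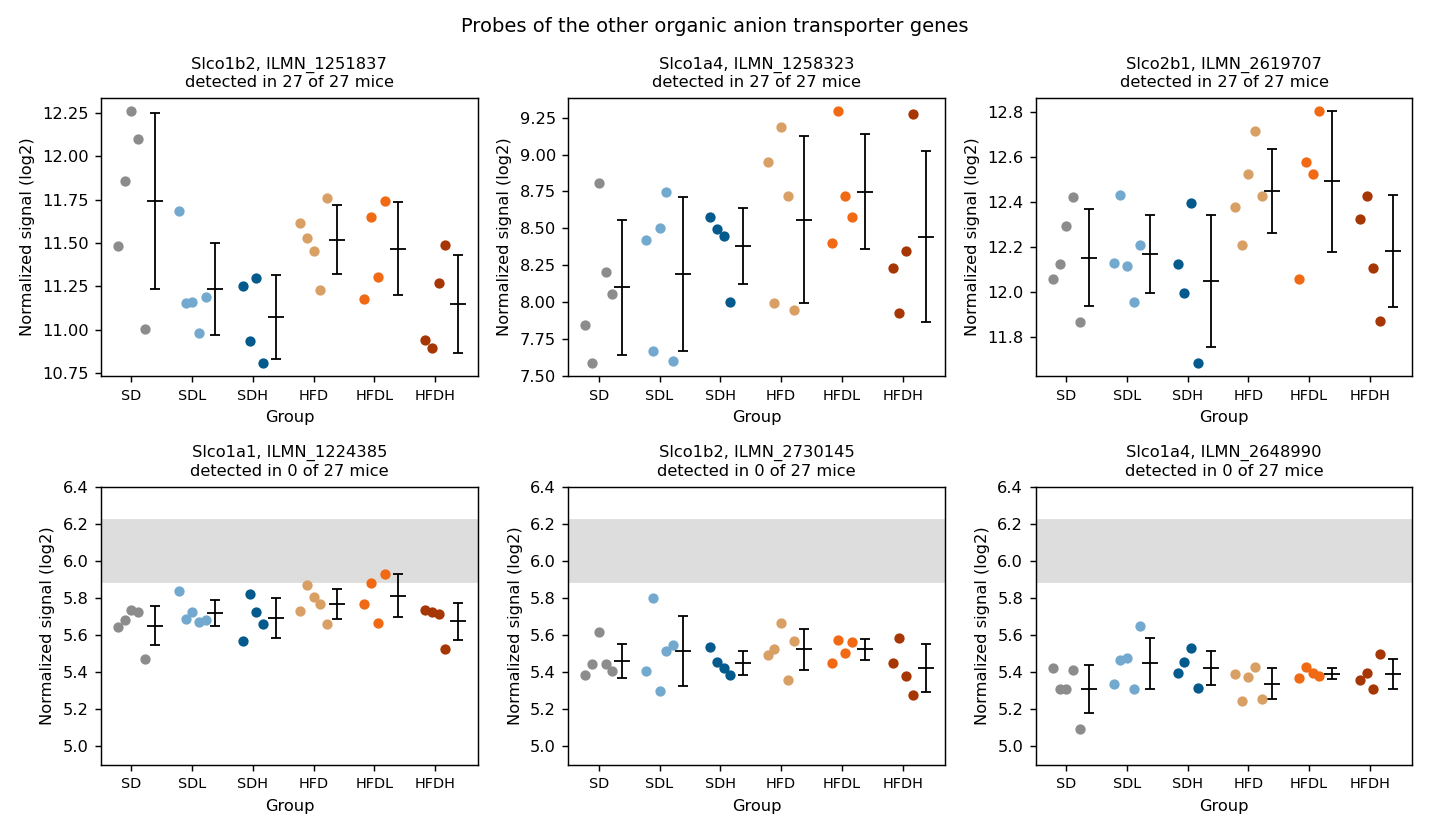
Normalized signal (log2, vertical axis) of the 6 other transporter probes in each of 27 mice by group, with the group mean and the SD of the mice beside the points; the grey band in the lower row is the range over mice of the lowest detected signal (5.89 to 6.22). The 3 upper probes were detected in 27 mice and the 3 lower ones in 0, and each panel has its own axis.

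Between doses, between diets under DSF, and in the effect of DSF on HFD minus that on SD, 0 of 18 limma tests of Slco1a4, Slco1b2 and Slco2b1 passed (lowest adjusted p = 0.24), and 1 had an unadjusted p under 0.05. Over all genes, 0% were called in SDH-SDL and HFDH-HFDL, 3.04% in HFDL-SDL, 6.83% in HFDH-SDH, and 0% and 0.0602% in the differences between diets at the low and the high dose. Over 27 mice, Slco2a1 and Slco1b2 had a Pearson's r of -0.51, which was 0.05 once group means were removed. Slco1b2 and Slco2b1 had an r of 0.37 and of 0.34 with group means removed, and Slco2a1 and Slco1a4 had -0.04. These are descriptions over mice that share groups.

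**Figure D3:**
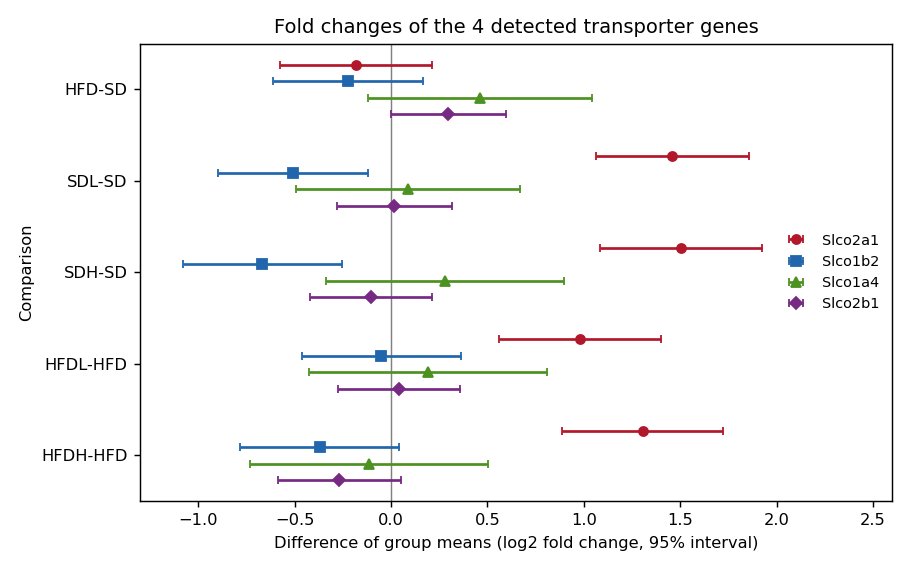
Log2 fold change (horizontal axis) of the 4 detected transporter genes in 5 comparisons, with 95% intervals from the fit. Slco2a1 lies from 0.98 to 1.50 in the 4 comparisons with DSF, and the other genes lie from -0.67 to 0.46.

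Of 10 other Slco genes, 1 could be tested. Slco3a1, which encodes another carrier of prostaglandins, lay between -0.15 and 0.06 in the 5 comparisons and was called in none. Slco4a1 was detected in 3 mice, Slco1a5 in 1 and Slco1a6, Slco1c1 and Slco4c1 in 0. Among 7 tested uptake carriers outside the family, Slc22a5, the carnitine transporter, was called in 1 comparison, and the median log2 fold change ran from -0.09 to 0.18. Slc22a5 was 9.65 ± 0.64 in SD (n = 5) and 10.44 ± 0.12 in SDH (n = 4), a rise of 0.80 (SE 0.23, limma adjusted p = 0.035). In that comparison 7.07% of all genes were called. SD replicate 5, at 10.76, lay above all 4 SDH mice, and without SD replicate 2 and SDH replicate 17 the adjusted p was 0.13. Slc10a1, the main sodium-dependent bile acid carrier of hepatocytes, changed by at most 0.22 (HFDL-HFD, SE 0.23, limma adjusted p = 0.79), with means of 6.84 to 7.06. Its probe was detected in 27 mice, but little above the lowest signals of detected probes (5.89 to 6.22 by mouse), which left little room for a fall.

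Among 8 tested efflux carriers of bile acids and organic ions, Slc47a1, which exports organic cations, fell at the high dose on both diets. Its signal was 12.72, 12.83, 12.67, 12.80 and 12.40 in SD, and 12.03, 11.85, 12.38 and 11.63 in SDH. On HFD it was 12.80, 12.89, 13.01, 13.10 and 13.02, and in HFDH 11.89, 12.49, 12.24 and 12.56. The log2 fold changes were -0.71 in SDH-SD (SE 0.15, limma adjusted p = 0.0059) and -0.67 in HFDH-HFD (SE 0.15, adjusted p = 0.011). In these comparisons 7.07% and 4.38% of all genes were called. Without SD replicate 2 and SDH replicate 17 the SDH-SD value was -0.56 (SE 0.16, limma adjusted p = 0.058). At the low dose the values were -0.46 and -0.34 (limma adjusted p = 0.16 and 0.42). Abcb11, the bile salt export pump, and Abcc2 and Abcc3, exporters of conjugates, were called in none of the 5 comparisons, with log2 fold changes between -0.37 and 0.34.

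**Figure D4:**
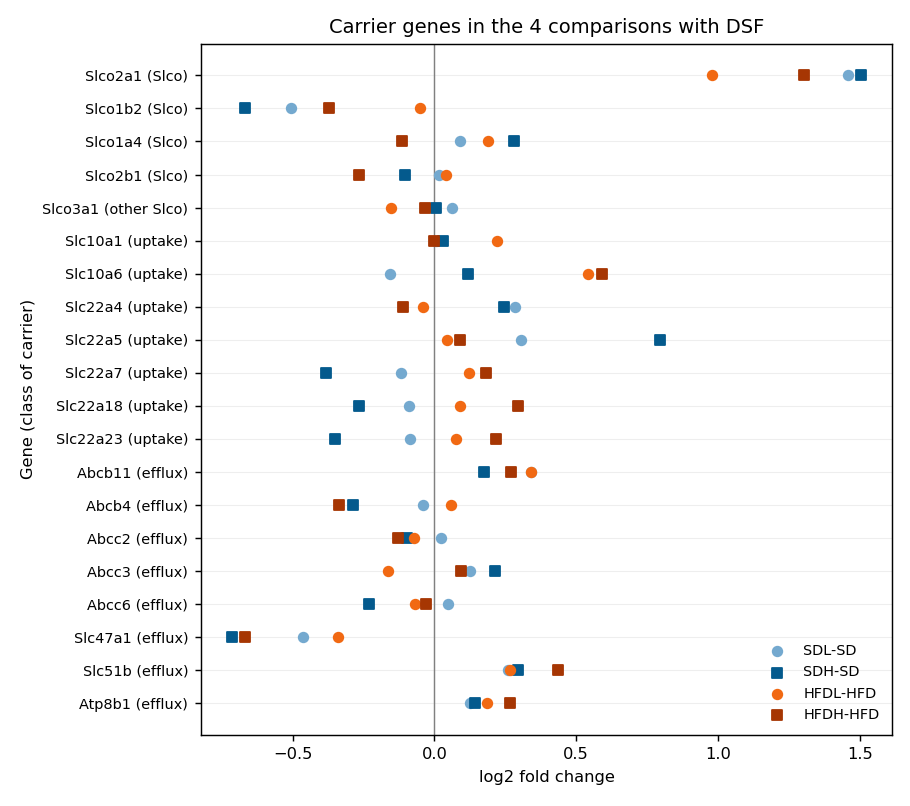
Log2 fold change (horizontal axis) of 20 carrier genes in the 4 comparisons with DSF, grouped as Slco genes, uptake and efflux carriers. Slco2a1 lies from 0.98 to 1.50, and of the others Slc22a5 (0.80 in SDH-SD) lies farthest to the right and Slc47a1 (-0.71 in SDH-SD) farthest to the left.

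Of 23 genes of prostaglandin synthesis, breakdown and reception, 13 could be tested, and 1 was called in any of the 5 comparisons. Ptges3, a co-chaperone of HSP90 also named for a prostaglandin E synthase activity, rose by 0.44 in SDH-SD (SE 0.12, limma adjusted p = 0.025), and its adjusted p was 0.092 without SD replicate 2 and SDH replicate 17. In SDH-SD 7.07% of all genes were called. The list's medians lay between -0.06 and 0.05, beside -0.04 to -0.01 over all genes. Hpgd, which inactivates the prostaglandins that Slco2a1 carries in, was 10.16 ± 0.45 in SD, 10.06 ± 0.26 in SDL and 10.13 ± 0.05 in SDH. It was 10.31 ± 0.29 in HFD, 10.00 ± 0.41 in HFDL and 9.81 ± 0.26 in HFDH, and the largest difference, HFDH-HFD, was -0.50 (SE 0.20, limma adjusted p = 0.16). Ptgs2, the inducible cyclooxygenase, was detected in 0 of 27 mice, as were the receptor genes Ptger4, Ptgfr, Ptgir and Ptgdr.

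Since Slco2a1 is also known from endothelium, markers of other liver cells were counted beside it. In whole liver, fewer cells of a type and less RNA per cell cannot be told apart. All 20 endothelial markers were tested, and 0 were higher in any of the 5 comparisons; in SDH-SD 2 were lower, Fcgr2b, an Fc receptor of sinusoidal cells (-0.68, SE 0.15, limma adjusted p = 0.011), and Eng, a TGF-beta co-receptor (-0.36, SE 0.11, adjusted p = 0.049), beside 4.26% of all genes. Without SD replicate 2 and SDH replicate 17, Fcgr2b passed (limma adjusted p = 0.036) and Eng did not (adjusted p = 0.075). Of the endothelial markers, Kdr and Wnt9b were detected in only 7 mice each, so their values rest mostly on signals not above background. The list's median was 0.01 in SDL-SD and -0.14 in SDH-SD, and on HFD 0.03 at the high dose and 0.05 at the low dose. The summed signal of the 20 genes ran from 9503 to 14099 in SD mice, from 10456 to 12727 in SDL, from 8661 to 12242 in SDH, from 10513 to 13483 in HFD, from 11769 to 14593 in HFDL and from 11300 to 12756 in HFDH. Pecam1 and Stab2, defining markers of endothelium and of sinusoidal endothelium, were called in none, with values of -0.23 to 0.25 and -0.29 to 0.22.

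The counts of other cell types stand beside 7.07% of all genes called in SDH-SD, 4.38% in HFDH-HFD and 0.632% in SDL-SD. Of 11 tested markers of Kupffer cells and macrophages, 0 were called, with single values from -0.95 to 0.99. Of 11 hepatocyte markers, Serpina1a (0.74, SE 0.15, limma adjusted p = 0.0038) and Alb rose in SDH-SD. The probe of Alb was detected in 0 of 5 SD and 4 of 4 SDH mice, at least 1.26-fold higher in SDH against the lowest detected signals (limma adjusted p = 0.026), and did not pass without the 2 mice with acinar transcripts (adjusted p = 0.19). The hepatocyte markers had values above 0 for 11 of 11 in SDL-SD and SDH-SD, 10 in HFD-SD and HFDH-HFD and 9 in HFDL-HFD, where 42.7% to 49.1% of all genes did, and list medians of 0.25 to 0.38. Among 12 genes of the pericentral and periportal zones, Rhbg, an ammonium transporter, was lower in SDL-SD and SDH-SD (-0.80 and -0.72) and Cyp1a2, a pericentral cytochrome, was higher in HFDH-HFD (0.93). Without the 2 mice with acinar transcripts neither Rhbg value passed (limma adjusted p = 0.15 and 0.11). Of 12 markers of cholangiocytes and stellate cells, Sox9 was higher (0.94) and Col1a1 and Rgs5 were lower (-0.96 and -0.55) in SDH-SD, and Rgs5 was lower in HFDH-HFD (-0.88). Without those 2 mice Sox9 passed (limma adjusted p = 0.04), and Col1a1 and Rgs5 did not pass in SDH-SD (adjusted p = 0.074 and 0.065). The probe of Col1a1 was detected in 5 of 5 SD and 1 of 4 SDH mice, so its value rests partly on signals not above background. Of 6 acinar markers, 0 were called, with medians of -0.86 to 0.69. The part of these cell types in the Slco1b2 and Slco2a1 values was not tested.

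Slco1a1 and other carriers differ between the sexes in mouse liver, so sex-biased genes were counted too. The counts stand beside 0.933% of all genes called in HFD-SD, 7.07% in SDH-SD and 4.38% in HFDH-HFD. Of 13 male-biased genes, Cyp4a12b was lower in HFD-SD (-3.24), Mup20 higher in SDH-SD (1.16) and Cyp7b1 and Gstp1 higher in HFDH-HFD (1.17 and 0.99). Of 7 female-biased genes, Cyp2b9 and Cyp2b13 were higher in HFD-SD (4.05 and 3.25). The probe of Cyp2b13 was detected in 2 of 5 SD, 5 of 5 HFD and 0 of 4 HFDH mice, so its HFD-SD value rests partly on signals not above background, and it was at least 7.6-fold lower in HFDH than in HFD (limma adjusted p = 9e-04). All other genes of the 2 lists missed the threshold in the 5 comparisons.

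Targets of CAR and PXR, nuclear receptors that respond to drugs, were called in all 5 comparisons. Of 16 tested, 4 rose in SDL-SD, 10 in SDH-SD, 1 in HFDL-HFD, 1 in HFD-SD and 3 in HFDH-HFD, where Aldh1a1 fell (-0.88, limma adjusted p = 0.03). The share of all genes called was 0.632% in SDL-SD, 7.07% in SDH-SD, 0.461% in HFDL-HFD, 0.933% in HFD-SD and 4.38% in HFDH-HFD. The largest changes were those of Cyp2b10, the classical target of CAR, with 3.53 in SDL-SD and 3.96 in SDH-SD, and on HFD 3.97 at the high dose and 3.26 at the low dose (limma adjusted p 8.4e-05 to 0.0024). The probe of Cyp2b10 was detected in 3 of 5 SD mice, so its values against SD rest partly on signals not above background. Cyp2c29 (2.71), Gsta1 (2.27) and Gsta2 (1.96) followed Cyp2b10 in SDH-SD. In HFD, HFDL and HFDH mice Cyp2c29 averaged 9.15, 10.10 and 10.4. Gsta1 averaged 8.99, 7.18 and 8.23 in these groups and Gsta2 9.28, 8.12 and 9.41. Both means were lower in HFDL than in HFD, but the groups overlapped and neither gene was called in HFDL-HFD. Cyp3a11, the classical target of PXR, rose in HFD-SD (1.27, SE 0.18, limma adjusted p = 0.00086) and was called in no comparison with DSF (0.16 to 0.40). Without SD replicate 2 and SDH replicate 17, 9 targets were called in SDH-SD and all 9 were among the 10, while Gsta1 was not (limma adjusted p = 0.065).

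Cyp2b10 set 1 SD mouse apart. Its signal was 5.98, 6.00, 6.64, 6.21 and 9.91 in SD replicates 1 to 5, so that replicate 5 reached the lowest SDL mouse (9.90), although its label gives no DSF. The same mouse had the lowest Slco1b2 and Slco2a1 and the highest Slc22a5 of the SD mice. Its Slco2a1, at 8.77, lay below every mouse with DSF. Slco2a1 in SDL-SD and SDH-SD stayed between 1.29 and 1.70 when any 1 mouse was left out.

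By pattern over the 27 mice, the genes most like Slco2a1 among 9191 tested genes with a symbol were Gm2a (Pearson's r 0.92), Avpr1a (0.87), Dnaic1 (0.85), Igfbp2 (0.84) and Rd3 (0.83). Gm2a encodes the activator protein of ganglioside GM2 breakdown, Avpr1a the V1a vasopressin receptor, Dnaic1 a dynein chain of cilia, Igfbp2 a binding protein of insulin-like growth factors and Rd3 a protein of photoreceptors. The values are descriptions, since mice share groups and many genes differ between mice with and without DSF. The probe of Dnaic1 was detected in 15 of 17 mice with DSF and 0 of 10 without it, and that of Rd3 in 9 of 27 mice, between 5.62 and 6.35, so these correlations rest partly or mostly on signals not above background. With group means removed, r was 0.63 for Gm2a, 0.64 for Avpr1a, 0.67 for Rd3, 0.34 for Dnaic1 and 0.26 for Igfbp2. Gm2a was 11.36 ± 0.32 in SD, 12.05 ± 0.27 in SDL, 12.13 ± 0.21 in SDH, 11.22 ± 0.24 in HFD, 11.76 ± 0.07 in HFDL and 11.94 ± 0.20 in HFDH. SD replicates 1 and 3, the highest of their group for Slco2a1, were also the highest for Gm2a and for Avpr1a.

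The genes least like Slco2a1 were Apoa4, an apolipoprotein of triglyceride-rich particles (r -0.88), Hsbp1, a binding protein of heat shock factor (-0.86), and Prnp, the prion protein (-0.85). Apoa4 kept an r of -0.73 with group means removed, against -0.29 for Hsbp1 and -0.33 for Prnp. It fell from 12.98 ± 0.59 in SD to 11.16 ± 0.43 in SDL and 10.96 ± 0.82 in SDH, and was 13.21 ± 0.73 in HFD, 12.64 ± 0.26 in HFDL and 12.32 ± 0.41 in HFDH. For Slco1b2 the most alike genes were Lypla1 (0.81), Colec12 (0.79) and Gfm1 (0.78), for Slco1a4 Ugt1a2 (0.87), Slc22a26 (0.72) and Nt5e (0.70), and for Slco2b1 Cd81 (0.84), Prodh2 (0.84) and Abhd14b (0.83). Of these, Colec12 was detected in 17 mice and Slc22a26 in 10.

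**Figure D5:**
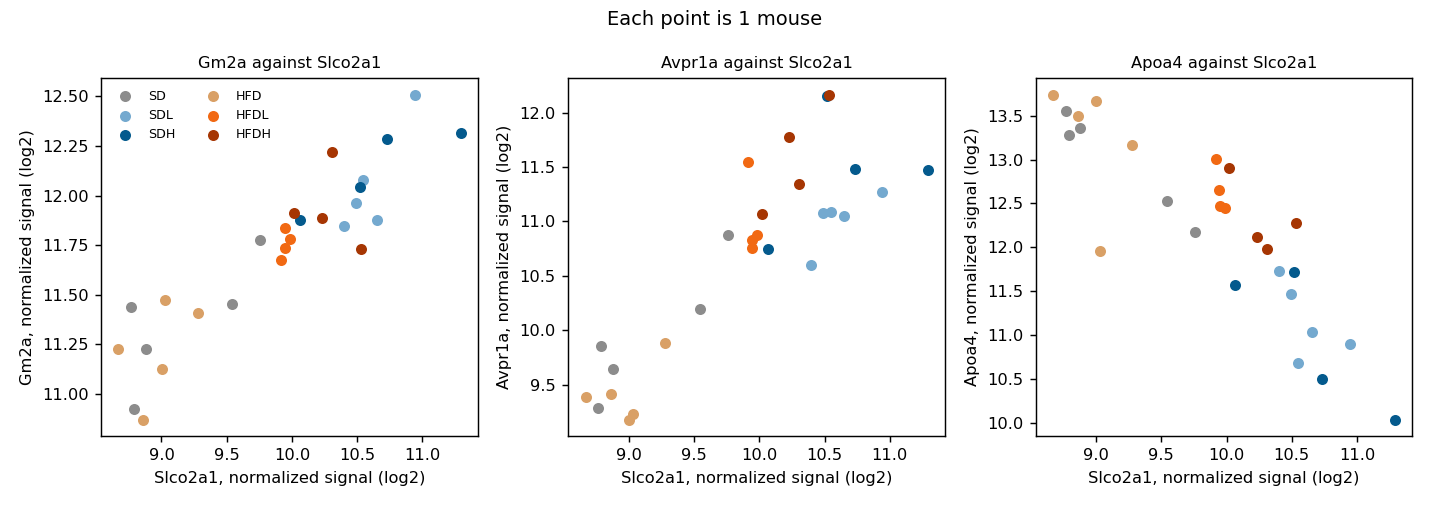
Normalized signal (log2) of Gm2a, Avpr1a and Apoa4 (vertical axes) against that of Slco2a1 (horizontal axis), with each of 27 mice as a point coloured by group. Over all mice r is 0.92 for Gm2a, 0.87 for Avpr1a and -0.88 for Apoa4, and mice without DSF lie to the left.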

How the data were processed

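Liver RNA was hybridized to Illumina MouseRef-8 v2 BeadChips. The intensity of each of 25697 probes was extracted by the authors with GenomeStudio (version 2011.1) and deposited on a linear scale, from 27 to 37030. The detection p-value of each probe, deposited beside it, compares the probe with the negative controls of its array. The authors also deposited a score, the Z-normalized intensity of each array, which served here only as an alternative for all 30 mice. Probe symbols came from the platform annotation, which gives a symbol for 23978 probes and none for 1719.

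Intensities were converted to log2 and Z-normalized within each array, as the study's methods state. They were then multiplied by the mean array SD (1.89) and returned to the common mean, so differences read as log2 fold changes. Arrays with under 35% of probes detected at p under 0.05 were left out, and repeat arrays of 1 mouse were averaged. A gene was tested if any of its probes was detected in at least 5 mice, and the brightest such probe stood for it. A linear model with a mean for each group and 1 spread for all 6 was fitted with limma 3.58.1 under R 4.3.3. P-values were adjusted by Benjamini-Hochberg over all 9972 genes, at an adjusted p under 0.05. The model was tested only on simulated data with normally distributed noise, which does not show how it does on other noise. The precision is limited by the number of arrays, with 4 or 5 mice a group.

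Genes named are the 5 transporters with every probe, their nearest genes by correlation (for Slco2a1 5 highest and 3 lowest, otherwise 3 highest), up to 4 called genes per list and 6 reference genes, Slc10a1, Hpgd, Pecam1, Stab2, Cyp2b10 and Cyp3a11. The transporters, the 13 lists and the alternatives were chosen with earlier results of these data known. Slco2a1 was put first in the set for its rise under DSF, so its values carry no test. Alternatives were other normalizations, detection filters, probe summaries, sets of mice and a replicate block, and lists recounted without 2 mice were added after seeing the data.

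For the groups with DSF, mice carry the numbers of the intensity table, and 1 HFD column named 5B was read as HFD replicate 5. Promoter windows were taken from RefSeq (GRCm38.p6), and positions of the probes were not used here.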

Additional observations from a re-analysis of the deposited data

Results flagged for a closer look

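The following values of the 3 low-signal mice, which entered no comparison, lay above every control mouse of the same diet while their probes counted as detected. On the scale of all 30 mice, Slco1a4 (ILMN_1258323) was 12.2 in SDH replicate 16, against at most 8.59 in SD mice, and the second probe of Slco1b2 (ILMN_2730145) was 9.88 in the same mouse, against at most 5.57. Their raw intensities were 45 and 41 on an array whose highest signal was 60. Slco2b1 was 16.6 in HFDL replicate 10 and 16.1 in HFDH replicate 16, against at most 12.3 in HFD mice, with raw intensities of 3335 and 5439. The log2 SD of these 3 arrays was 0.102, 1.08 and 1.23, against 1.78 to 1.99 in the others, and Z-normalization divides by it. How far this scaling sets the 4 values was not tested.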

How the results depend on the processing

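The number of called genes among Slco1a4, Slco1b2 and Slco2b1 stayed 0 in HFD-SD and HFDL-HFD under every alternative. In SDH-SD it went from 1 (Slco1b2) to 0 with all 30 mice, with the deposited scores, without a detection filter, with only the 2 groups compared and without the 2 mice with acinar transcripts, and ranged from 0 to 1 when 1 mouse was left out. In SDL-SD it ranged from 0 to 1 when 1 mouse was left out, and in HFDH-HFD it went from 0 to 1 (Slco2b1) with array-median centring alone. Small differences changed sign. With all 30 mice, and with the deposited scores, Slco1a4 in HFDL-HFD was -0.21 and -0.22, and Slco2b1 in HFDH-HFD was 0.61 in both. Other values moved further without changing sign or passing. With all 30 mice Slco1b2 was -1.09 in HFDL-HFD, -1.302 in HFDH-HFD and -0.93 in SDH-SD, Slco1a4 1.07 in SDH-SD and -0.49 in HFDH-HFD, and Slco2b1 0.94 in HFDL-HFD and -0.33 in SDH-SD, with limma adjusted p of 0.41 to 0.95. With quantile normalization, neqc and median centring, Slco2b1 was -0.070, -0.071 and -0.12 in SDL-SD and -0.046, -0.046 and -0.19 in HFDL-HFD. Without the 2 mice with acinar transcripts, Slco1a4 in SDL-SD was -0.040 and Slco2b1 in SDH-SD 0.012. On leaving out 1 mouse, Slco2b1 ranged from -0.055 to 0.084 in SDL-SD, -0.22 to 0.019 in SDH-SD and -0.062 to 0.19 in HFDL-HFD, Slco1a4 from -0.051 to 0.27 in SDL-SD and -0.39 to 0.058 in HFDH-HFD, and Slco1b2 from -0.14 to 0.045 in HFDL-HFD. The causes were not tested. Slco2a1 kept its direction in the 4 comparisons with DSF under all alternatives.

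Called genes over all genes numbered 93 in HFD-SD (1 to 159 under the alternatives), 63 in SDL-SD (2 to 74), 705 in SDH-SD (6 to 1090), 46 in HFDL-HFD (6 to 128) and 437 in HFDH-HFD (15 to 1025). SD and HFD mice share replicate numbers. A replicate block in HFD-SD over these 2 groups gave 0 called transporters, -0.18 for Slco2a1 and 12 called genes in all, beside 16 in these groups with no block. Cyp2b9 and Cyp3a11 passed with the block (limma adjusted p = 0.016 and 0.034), and Cyp4a12b and Cyp2b13 passed neither with it (0.099 and 0.069) nor without it (0.1 and 0.053). Deviations of same-numbered mice correlated at -0.20, 0.16, 0.20, 0.21 and 0.01, and 3 of the 5 numbers correlated best with themselves, which is a hint from the data. The labels tie the numbers to no shared animal or batch and not every correlation was over 0.1, so the mice were not treated as pairs. Signals near the negative controls give no value for Slco1a1.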
